A study of Triticum turgidum subsp. durum with 32 samples.

Results

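The loci described here are the 761 transcribed loci of the first 16 Mb of chromosome 2A of wheat that were read in the leaves of phytochrome mutants. They were chosen as all loci on chromosome 2A that end at or before position 16000000 and reach 3 reads or more in 2 or more of the 32 libraries. Of the 1239 loci in this segment, 476 did not pass that filter and 2 were left out by the rule, so 761 of the 90331 loci detected in the whole experiment remained. The segment was chosen with earlier results of these same libraries known, so counts of called loci within it describe the segment and are not independent evidence about it.

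The libraries come from the third leaf of 4-week-old plants of the tetraploid durum wheat Kronos, grown with 16 h of light and 8 h of dark and harvested 4 h after the start of the light period. The *phyB*-null line combines TILLING mutations, that is chemically induced point mutations, in the A and B copies of *PHYB*, and its control is a *PHYB* wild-type sister line from the same backcrosses to Kronos. The *phyC*-null line carries null mutations in *PHYC*, and its control is a *PHYC* wild-type sister line. All 4 lines are Kronos, and each mutant exists here as 1 line, so that a difference between a mutant and its sister cannot be told apart from any other difference between these lines. Each line was sampled with 4 biological replicates in each of 2 experiments, which gives 8 libraries per line. The *PHYB* and *PHYC* experiments were grown separately, and the 2 experiments of the *PHYC* line stood in chambers with different ballasts.

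Phytochromes are photoreceptors that switch between a red-absorbing and a far-red-absorbing form and, in the active form, move into the nucleus and change transcription. In grasses *PHYB* and *PHYC* take part in flowering under long days and in the response to shade. The segment is the distal end of a chromosome arm, a kind of region that in wheat is rich in genes and in clusters of NB-LRR genes. These encode receptors with a nucleotide-binding domain and leucine-rich repeats that detect pathogen proteins inside the cell, and their copies are often similar in sequence. The strand setting of the counting is not given in the sources used here, so antisense or overlapping transcripts cannot be told apart, and the counts of near-identical copies are uncertain.

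The 761 loci took 0.682% to 1.53% of the counted reads of a library. The library totals were 25395835 to 47695062 in *phyB*-null, 21643708 to 34888411 in the *PHYB* wild type, 15961572 to 27926101 in *phyC*-null and 18898968 to 25666244 in the *PHYC* wild type. In single libraries 449 to 636 of the 761 loci had 3 reads or more. The 8 loci listed as photosynthesis markers had reads in every library (at least 3), but not all had the same order of lines. The 2 annotated as the same photosystem II polypeptide summed to 77600 to 180000 normalized counts in *phyB*-null, against 346 to 19300 in the *PHYB* wild type, and they summed to 14.9 to 6100 in *phyC*-null and 13.5 to 981 in the *PHYC* wild type. The other 6 summed to 3870 to 5300 in *phyB*-null, 4840 to 17800 in the *PHYB* wild type, 10400 to 17200 in *phyC*-null and 8180 to 26700 in the *PHYC* wild type. A locus annotated as pollen-specific also had 275 to 875 reads per library, and the part of neither list in the results below was tested. The sources used here do not name the *PHYB* and *PHYC* loci, and point mutations need not lower a transcript, so the mutated genes gave no check of the labels.

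The loci of the segment were mostly weakly expressed. The median of their mean normalized counts was 8.48, against 18 over all detected loci, and 316 of them were under 5 while 282 reached 20. A normalized count is here the read count divided by the size factor of its library over all 32 libraries, and it is not corrected for the length of the locus. In 15 of the 16 stretches of 1 Mb, the median difference of a library from the median of the 32 libraries stayed between -0.46 and 0.43 on the log2(normalized count + 1) scale, over the loci with a mean of at least 20. The exception was the stretch from 11 to 12 Mb, which held only 7 such loci and reached -1.01 to 1.12. In the stretch from 0 to 1 Mb, which held 28 such loci, the values were 0.07 to 0.19 in *phyB*-null, -0.19 to 0.08 in the *PHYB* wild type, -0.28 to -0.03 in *phyC*-null and -0.13 to 0.23 in the *PHYC* wild type, so that all *phyB*-null libraries were above and all *phyC*-null libraries below the median. From 3 to 4 Mb (21 loci) the *phyB*-null libraries were at 0.04 to 0.25, against -0.21 to 0.19 in the *PHYB* wild type, and the *phyC*-null libraries at -0.2 to -0.01, against -0.22 to 0.12 in the *PHYC* wild type. In both stretches the libraries of each mutant overlapped those of its own wild type. One-sided values also stood elsewhere, with *phyB*-null at -0.46 to -0.01 from 12 to 13 Mb. The *PHYC* wild type was at -0.28 to -0.05 from 6 to 7 Mb, and *phyC*-null at -0.28 to -0.05 from 14 to 15 Mb.

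A larger share of the loci of the segment than of all loci was called in *phyC*-null, while the share called in *phyB*-null was close to that over all loci. A locus is termed called when its Benjamini-Hochberg adjusted P in edgeR's quasi-likelihood test was at most 0.01, and both experiments had to call it in the same direction. In *phyC*-null 24 of 554 tested loci were called in both experiments (4.33%), 13 of them higher and 11 lower, where the share was 0.472% over all tested loci (0.245% higher and 0.227% lower) and 0.177% over the rest of chromosome 2A. In *phyB*-null 33 of 621 loci were called in both experiments (5.31%), against 5.01% over all loci and 5.04% over the rest of the chromosome. Of these, 19 were higher and 14 lower, where 2.13% of all loci were called higher and 2.89% lower. The *phyC*-null count depended on single libraries, since it was 10 without *phyC*-null replicate 4 of experiment 1, 13 without replicate 2, 15 without replicate 1 and 15 without *PHYC* wild-type replicate 4 of the same experiment. Without these libraries, in the same order, 13, 16, 20 and 19 loci were called in experiment 1 alone, against 34 with all of them. The share of all tested loci called in that experiment fell as well, to 0.594%, 0.626%, 0.782% and 0.734%, against 1.64%. For calls in both experiments the matching share over all loci is not given here. In experiment 1 of *phyC*-null alone 34 loci were called, 16 higher and 18 lower, where 1.64% of all tested loci were called (0.722% higher and 0.923% lower). In experiment 2 of *phyC*-null alone 41 loci were called, 22 higher and 19 lower, where 1.04% of all tested loci were called (0.566% higher and 0.474% lower). In experiment 1 of *phyB*-null alone 59 loci were called, 27 higher and 32 lower, where 9.41% of all tested loci were called (3.98% higher and 5.43% lower). In experiment 2 of *phyB*-null alone 74 loci were called, 43 higher and 31 lower, where 11.6% of all tested loci were called (5.83% higher and 5.72% lower).

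**Figure D1:**
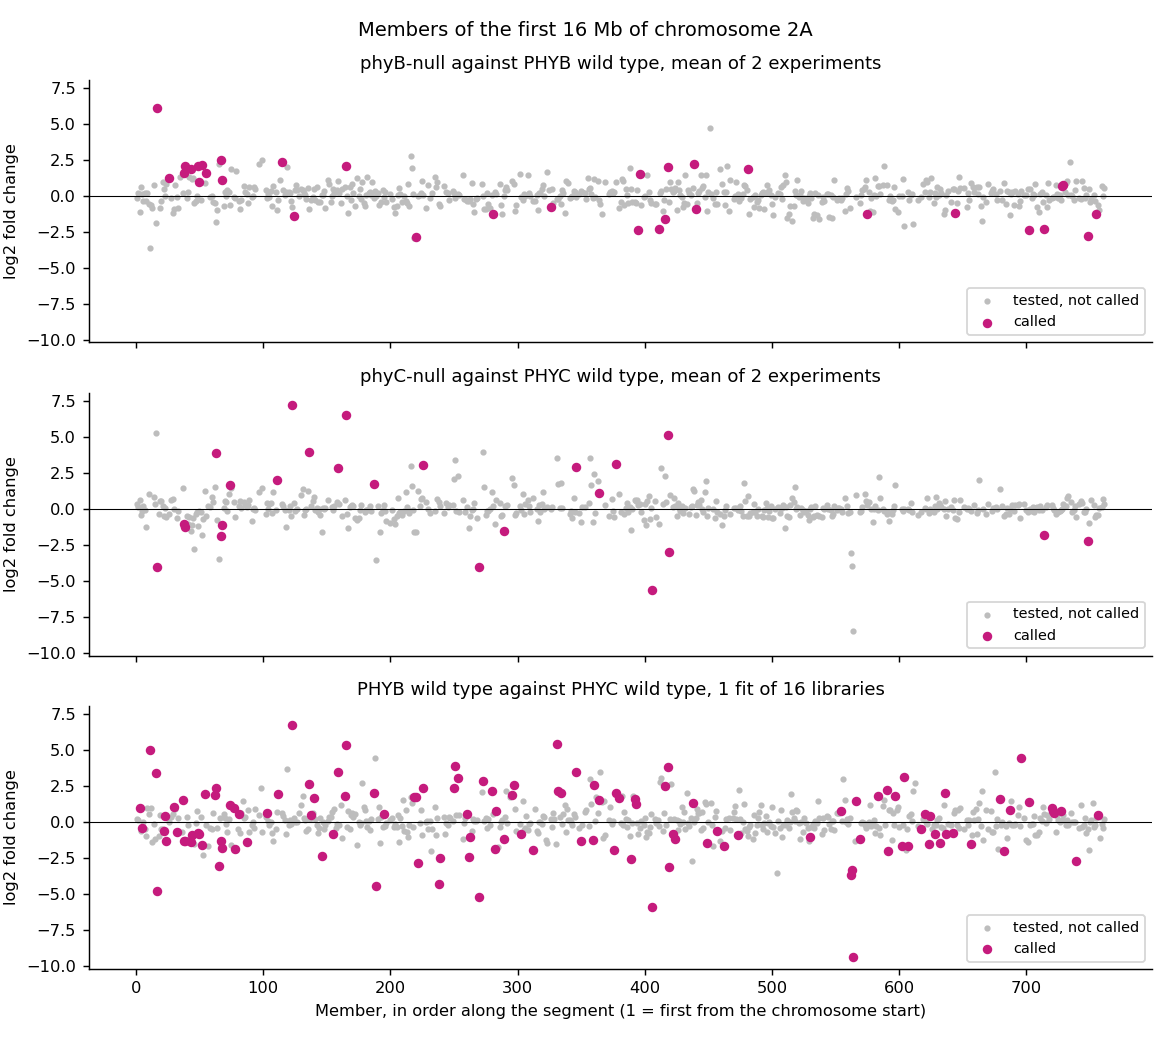
The log2 fold change of each tested locus (y axis) against its order along the segment (x axis), for *phyB*-null against its wild type and *phyC*-null against its wild type (mean of 2 experiments) and for the *PHYB* wild type against the *PHYC* wild type, with called loci in pink and others in grey. In the middle panel 22 of the 24 pink points lie in the first 8 Mb, and fitted values of loci with no reads in a line depend on the prior count.

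Of the 24 *phyC*-null calls, 22 lay in the first 8 Mb of the segment. They numbered 13 of 176 tested loci from 0 to 4 Mb, 9 of 152 from 4 to 8 Mb, 0 of 123 from 8 to 12 Mb and 2 of 103 from 12 to 16 Mb. The *phyB*-null calls also thinned out from 8 to 12 Mb, with 15 of 190, 9 of 174, 2 of 138 and 7 of 119 loci in the same order. In the first 1 Mb all 9 *phyB*-null calls among 49 tested loci were rises, where rises were called at 2.13% of all tested loci. All 3 *phyC*-null calls among 47 tested loci there were falls, where the share of falls was 0.227% over all tested loci. This window was added to the stretches above with results of these libraries known, so its counts only describe it. The 9 rises include loci annotated as NB-LRR genes, where counts of near-identical copies are uncertain, so they need not be separate observations.

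The rises in *phyB*-null near the start of the segment included 4 loci annotated as NB-LRR genes and 1 encoding a G patch protein, a class defined by a short glycine-rich domain found in RNA-binding proteins. The annotations come from the study's lists of genes changed in *phyB*-null, so the fact that all 5 were called is not independent evidence. Traes_2AS_D917848B7, the G patch locus (2A, 680805 to 691200), had 341 to 432 normalized counts in *phyB*-null (median 386) and 112 to 136 in the *PHYB* wild type (median 130). It had 126 to 169 in *phyC*-null (median 150) and 269 to 388 in the *PHYC* wild type (median 292). The libraries of each mutant did not overlap with those of their own wild type, and the order of mutant and wild type was opposite in the *PHYB* and *PHYC* lines. The log2 fold change was 1.65 ± 0.13 and 1.58 ± 0.11 in experiments 1 and 2 of *phyB*-null (SE; edgeR adjusted P = 7.87e-06 and 7.61e-06) and -1.14 ± 0.16 and -0.93 ± 0.12 in *phyC*-null (0.002 and 0.00108). The *phyC*-null call did not hold without *phyC*-null replicate 2 or 4 of experiment 1 (larger adjusted P of both experiments 0.0137 and 0.0132, edgeR), nor with a 2-fold minimum.

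The next locus, td-k45_contig_50232_td-k55_contig_14458 (2A, 691384 to 700133), starts 183 bp after the G patch locus and is annotated as the NB-LRR gene RGA4, named after resistance gene analogues. Its libraries had 201 to 263 normalized counts in *phyB*-null (median 219), 40.8 to 70.3 in the *PHYB* wild type (52.4), 50.8 to 69.1 in *phyC*-null (54.9) and 116 to 152 in the *PHYC* wild type (133). The 2 neighbours therefore had the same order of lines, with *phyB*-null highest, the *PHYC* wild type next, and *phyC*-null and the *PHYB* wild type low and overlapping. The fold changes were 2.11 ± 0.15 and 2.0 ± 0.16 in *phyB*-null (edgeR adjusted P = 3.69e-06 and 2.24e-05) and -1.24 ± 0.17 and -1.23 ± 0.14 in *phyC*-null (0.00154 and 0.000295). The *phyC*-null call was lost without *phyC*-null replicate 4 of experiment 1 (adjusted P = 0.0115, edgeR).

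A second RGA4 locus, td-k45_contig_22039_td-k21_contig_19641 (2A, 878189 to 884379), had 393 to 655 normalized counts in *phyB*-null (median 461), and 83.4 to 151 in the *PHYB* wild type (115). In *phyC*-null it had 71.5 to 106 (median 88), and in the *PHYC* wild type 66.7 to 273 (225). The *PHYC* wild type overlapped *phyC*-null only through replicate 2 of experiment 1 at 66.7, since its other 7 libraries were at 155 or more. The locus rose in *phyB*-null by 2.30 ± 0.11 and 1.87 ± 0.16 (edgeR adjusted P = 1.94e-07 and 3.74e-05), and in *phyC*-null it was called lower in experiment 2 (-1.25 ± 0.12, adjusted P = 7.61e-05) but not in experiment 1 (-1.11 ± 0.30, 0.0524). The third RGA4 locus, td-k51_contig_33506 (2A, 768805 to 770860), had 65.5 to 89 normalized counts in *phyB*-null (median 76.8), 12.2 to 36.9 in the *PHYB* wild type (19.2), 8.69 to 33.7 in *phyC*-null (18.2) and 32.2 to 76.3 in the *PHYC* wild type (56). Its rise in *phyB*-null was 2.03 ± 0.19 and 1.68 ± 0.31 (adjusted P = 2.61e-05 and 0.00349), and the call of experiment 2 did not hold without *phyB*-null replicate 3 or 4 of that experiment (0.0145 and 0.0148).

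The fourth NB-LRR locus showed the *phyB*-null rise without a called difference in *phyC*-null. td-k51_contig_16470 (2A, 945569 to 953189), annotated as similar to RPP13, a receptor known from downy mildew resistance in Arabidopsis, had 157 to 215 normalized counts in *phyB*-null (median 170) and 35 to 83.9 in the *PHYB* wild type (57.7). It had 38.6 to 57.2 in *phyC*-null (52.4) and 51.2 to 88.5 in the *PHYC* wild type (70.4), which overlap. The fold change was 1.74 ± 0.16 and 1.48 ± 0.23 in *phyB*-null (edgeR adjusted P = 2.91e-05 and 0.00116) and -0.61 ± 0.22 and -0.34 ± 0.15 in *phyC*-null (0.14 and 0.299). Traes_2AS_FEFDC29F2 (2A, 893711 to 905273) lies between these genes. It has no annotation in the lists used here and was singled out after its values were seen. This locus rose in *phyB*-null by 1.11 ± 0.17 and 0.87 ± 0.17 (edgeR adjusted P = 0.00106 and 0.00397) and differed by -0.27 ± 0.19 and 0.05 ± 0.14 in *phyC*-null (0.455 and 0.916).

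**Figure D2:**
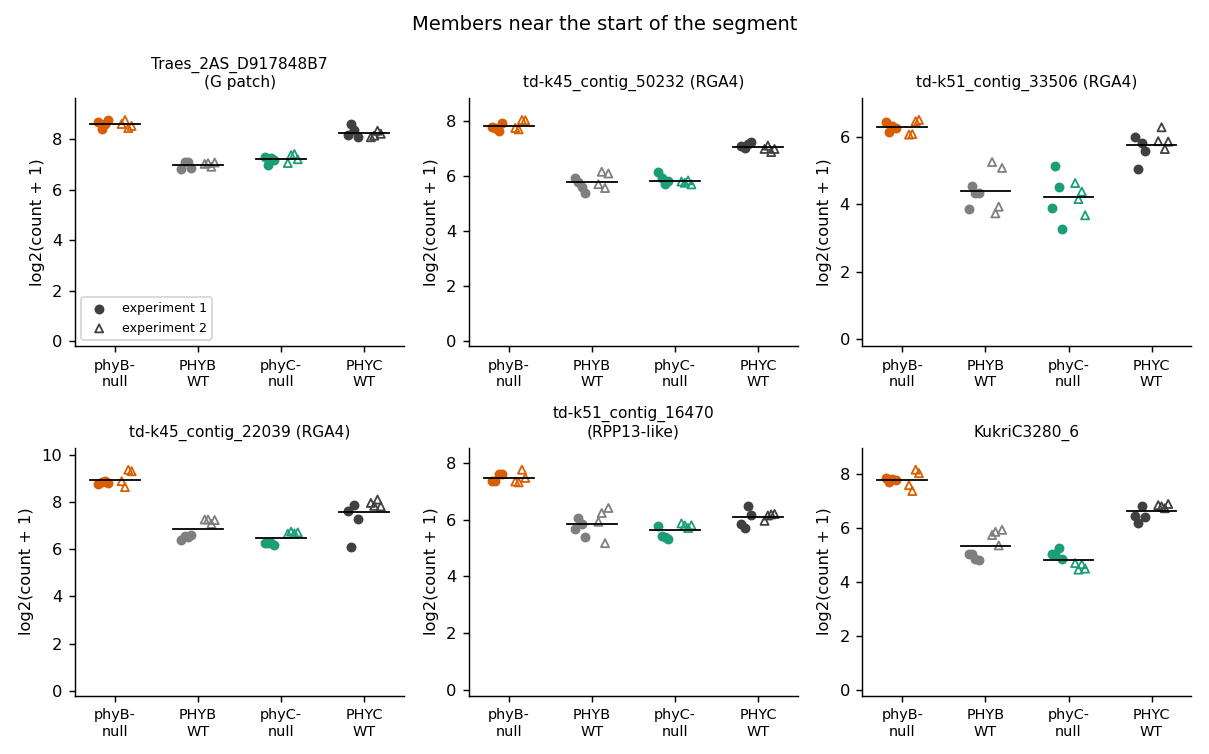
Per-library values of 6 loci near the start of the segment, as log2(normalized count + 1), with circles for experiment 1, triangles for experiment 2 and a bar at the mean of the 8 libraries of a line. *phyB*-null is highest in every panel, and the *PHYC* wild type lies above *phyC*-null without overlap in the panels of Traes_2AS_D917848B7, td-k45_contig_50232 and KukriC3280_6.

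KukriC3280_6 (2A, 1179652 to 1182680) had 163 to 281 normalized counts in *phyB*-null (median 220), 26.8 to 59.6 in the *PHYB* wild type (35.8), 20.9 to 36.8 in *phyC*-null (26.4) and 71.5 to 116 in the *PHYC* wild type (107). No library of a mutant overlapped its own wild type, and the fold changes were 2.87 ± 0.14 and 2.09 ± 0.20 in *phyB*-null (edgeR adjusted P = 1.32e-07 and 6.74e-05) and -1.44 ± 0.21 and -2.26 ± 0.16 in *phyC*-null (0.00232 and 5.58e-06). The *phyC*-null call was lost without *phyC*-null replicate 1, 2 or 4 of experiment 1 (0.0121, 0.014 and 0.0151). Its neighbour Traes_2AS_A087099AF had another order of lines, with the *PHYC* wild type highest. This locus, which starts 1041 bp further on and was singled out after its values were seen, had 312 to 384 normalized counts in *phyB*-null (median 346), 90.9 to 222 in the *PHYB* wild type (167), 227 to 328 in *phyC*-null (263) and 384 to 976 in the *PHYC* wild type (529).

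The order of lines of the G patch locus also stood at td-k51_contig_36766_td-k45_contig_28292 (2A, 264789 to 266866). It had 67 to 115 normalized counts in *phyB*-null (median 89.2) and 0 to 3.79 in the *PHYB* wild type (1.22), but 0 to 5.86 in *phyC*-null (2.15) and 31.5 to 41.9 in the *PHYC* wild type (35.7). The locus was thus read at 67 or more in every *phyB*-null library and at 31.5 or more in every *PHYC* wild-type library, and near zero in all libraries of the other 2 lines. The 8 libraries held 1019 reads in *phyB*-null and 11 in the *PHYB* wild type, and 16 in *phyC*-null and 226 in the *PHYC* wild type. The log2 fold changes were 6.40 ± 0.35 and 5.85 ± 0.37 in *phyB*-null (edgeR adjusted P = 4.03e-07 and 4.79e-06) and -4.86 ± 0.46 and -3.26 ± 0.32 in *phyC*-null (9.95e-05 and 0.000119). With 11 and 16 reads in the low lines, these approximate standard errors understate the uncertainty of the fold changes.

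In all, 9 of 540 loci were called in both mutants in both experiments of each (1.67%, where 0.172% were over all tested loci). At 5 of them the direction was opposite, with a rise in *phyB*-null and a fall in *phyC*-null, and these are the G patch locus, its RGA4 neighbour, KukriC3280_6, Traes_2AS_A087099AF and td-k51_contig_36766_td-k45_contig_28292. At the other 4 the direction was alike. Both mutants were lower at Traes_2AS_82D41CE14 (2A, 14320890 to 14326176), which was singled out after its values were seen, with 210 to 276 normalized counts in *phyB*-null against 693 to 2294 in the *PHYB* wild type, and 159 to 345 in *phyC*-null against 568 to 1129 in the *PHYC* wild type. Traes_2AS_3A8C0BD60 (2A, 15377632 to 15378862) was also lower in both, with 2.03 to 8.09 normalized counts in *phyB*-null against 30.5 to 48.3 in the *PHYB* wild type, and 8.95 to 14.5 in *phyC*-null against 40 to 77.3 in the *PHYC* wild type. These were the only calls of *phyC*-null beyond 8 Mb, and at both loci the null libraries lay below all wild-type libraries of either line.

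At 11 of the 24 loci called in *phyC*-null (45.8%, where the share was 21.3% of all 343 loci called so), all 8 *PHYC* wild-type libraries lay outside the range of the other 24 libraries. All 11 lie between 2424309 and 7415215, and the *PHYC* wild type was highest at 4 and lowest at 7 of them. At 16 of the 24 loci the midpoint of the *PHYB* lines was nearer to *phyC*-null than to the *PHYC* wild type (66.7%, against 57.7% of the 343). It is the average of the log2 mean levels of *phyB*-null and the *PHYB* wild type. Where these lines lie far apart, the midpoint need not describe either of them. The separation of *PHYC* wild type and *phyC*-null is fixed by the choice of these loci, while the level of the *PHYB* lines is not.

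Traes_2AS_A0A7891B9 (2A, 7411639 to 7415215) was 1 of the 4 with the *PHYC* wild type highest. It had 1422 to 1789 normalized counts in *phyC*-null (median 1635) and 11887 to 15492 in the *PHYC* wild type (median 12342). It had 972 to 1196 in *phyB*-null (median 1155) and 1285 to 1848 in the *PHYB* wild type (median 1435). Every *PHYC* wild-type library was thus far above all 24 others, and the other 3 lines were close to each other. The log2 fold change in *phyC*-null was -3.09 ± 0.14 and -2.93 ± 0.10 (edgeR adjusted P = 5.98e-07 and 2.29e-08), and in *phyB*-null -0.51 ± 0.11 and -0.37 ± 0.09 (0.00687 and 0.0172). A smaller difference of the same kind stood at td-k61_contig_10633 (2A, 5118121 to 5125962), with 353 to 488 normalized counts in *phyC*-null, 1071 to 1328 in the *PHYC* wild type, 472 to 602 in *phyB*-null and 403 to 652 in the *PHYB* wild type, and a fold change in *phyC*-null of -1.49 ± 0.12 and -1.59 ± 0.11 (3.35e-05 and 3.73e-06).

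**Figure D3:**
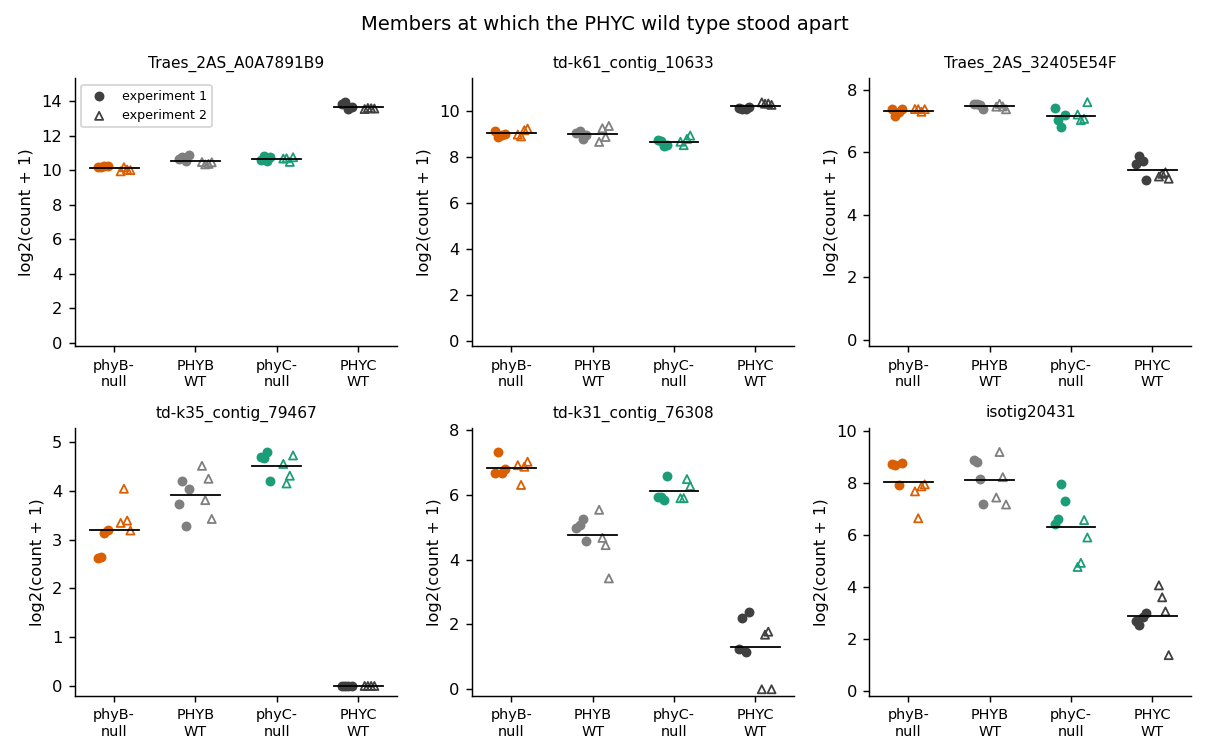
Per-library values of 6 loci at which the *PHYC* wild type stood apart, as log2(normalized count + 1), with circles for experiment 1, triangles for experiment 2 and a bar at the mean of the 8 libraries of a line. The *PHYC* wild type is above the other 3 lines at Traes_2AS_A0A7891B9 and td-k61_contig_10633 and below them at the other 4 loci.

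At other loci the *PHYC* wild type was the low line. Traes_2AS_32405E54F (2A, 3314214 to 3318691) had 110 to 193 normalized counts in *phyC*-null (median 139), 33.5 to 58.4 in the *PHYC* wild type (39.4), 143 to 166 in *phyB*-null (165) and 165 to 186 in the *PHYB* wild type (179). Traes_2AS_3947F19A9 (2A, 6471671 to 6474901) had 756 to 1010, 338 to 449, 790 to 1004 and 950 to 1313 normalized counts in the same order of lines. At both the *PHYC* wild type lay below all other libraries, and the *phyC*-null fold changes were 1.52 ± 0.21 and 1.99 ± 0.17 at Traes_2AS_32405E54F (edgeR adjusted P = 0.00202 and 3.26e-05) and 1.07 ± 0.14 and 1.15 ± 0.11 at Traes_2AS_3947F19A9 (0.00103 and 8.09e-05). These 2 loci and td-k61_contig_10633 were singled out after their values were seen, as was KukriC6603_6 (2A, 6092292 to 6095328), with 36.8 to 111 normalized counts in *phyC*-null, 0 to 20.5 in the *PHYC* wild type, 44.9 to 118 in *phyB*-null and 61.9 to 113 in the *PHYB* wild type.

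The *PHYC* wild type had no or almost no reads at several loci that the other lines expressed. At td-k35_contig_79467 (2A, 2424309 to 2425185) all 8 *PHYC* wild-type libraries had 0 reads, while *phyC*-null had 16.7 to 26.9 normalized counts, *phyB*-null 5.18 to 15.5 and the *PHYB* wild type 8.73 to 21.8. Against a floor of 3 reads over the 8 *PHYC* wild-type libraries, *phyC*-null was at least 46-fold higher, *phyB*-null at least 17.8-fold and the *PHYB* wild type at least 30.2-fold. The call in *phyC*-null held in both experiments (edgeR adjusted P = 0.000692 and 0.000711). The locus ends shortly before Traes_2AS_D38E1E530, a cytochrome P450 gene whose *PHYC* lines overlapped.

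td-k31_contig_22659 (2A, 2986796 to 2988566) and td-k31_contig_76308 (2A, 7326921 to 7329546) were called higher in both mutants. The first had 6.97 to 42.6 normalized counts in *phyC*-null, with 195 reads over its libraries, and 1 read in the whole *PHYC* wild type, and 21.3 to 65.5 normalized counts in *phyB*-null against 6.63 to 15.3 in the *PHYB* wild type. Its *phyC*-null call depended on single libraries, since it was lost without any 1 of 7 of the 8 libraries of *PHYC* experiment 2, all but *phyC*-null replicate 2 (adjusted P up to 0.0205, edgeR). Its *phyB*-null call was lost without replicate 3 or 4 of *phyB*-null or replicate 1 or 3 of the *PHYB* wild type in experiment 2 (0.0139 to 0.018). At td-k31_contig_76308, *phyC*-null had 55.7 to 93.7 normalized counts against 0 to 4.19 in the *PHYC* wild type, and *phyB*-null had 78 to 159 against 9.71 to 45.4 in the *PHYB* wild type. This locus rose by 4.64 ± 0.38 and 5.63 ± 0.44 in *phyC*-null (3e-05 and 1.64e-05) and by 1.89 ± 0.21 and 2.16 ± 0.35 in *phyB*-null (9.88e-05 and 0.00156).

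Traes_2AS_AFA56788E (2A, 2631617 to 2635407) rose in *phyC*-null by 4.23 ± 0.28 and 3.75 ± 0.29 (edgeR adjusted P = 6.05e-06 and 1.34e-05). It had 68.4 to 107 normalized counts in *phyC*-null and 3.57 to 11 in the *PHYC* wild type, with *phyB*-null at 4.47 to 29 and the *PHYB* wild type at 22.1 to 51, so that both *PHYB* lines lay below *phyC*-null. Traes_2AS_AFEB22E37 (2A, 1078144 to 1079933) was called higher in *phyC*-null from few reads, 160 in *phyC*-null and 8 in the *PHYC* wild type. That call was lost without any 1 of 9 libraries, among them all 4 of *phyC*-null experiment 1 (adjusted P up to 0.0377).

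Among the 5 largest falls in *phyC*-null were also 2 loci that were read mainly in the *PHYC* wild type. Traes_2AS_04D7D387C (2A, 4776277 to 4777629) had 0 to 3.64 normalized counts in *phyC*-null, 14.3 to 37.6 in the *PHYC* wild type, 0.736 to 2.7 in *phyB*-null and 0 to 1.75 in the *PHYB* wild type. It was lower in *phyC*-null by -3.98 ± 0.57 and -4.03 ± 0.51 on the log2 scale (edgeR adjusted P = 0.00248 and 0.001), a call lost without *PHYC* wild-type replicate 4 or *phyC*-null replicate 1 or 4 of experiment 1 (0.0101, 0.013 and 0.0101). Traes_2AS_DEEBB39EB (2A, 7200928 to 7201400) had 2 reads in *phyC*-null and 100 in the *PHYC* wild type, and 1 read in *phyB*-null and 2 in the *PHYB* wild type, and its call was lost without any 1 of 9 libraries of the *PHYC* line (adjusted P up to 0.0157). In bulk leaf RNA, fewer cells that express a locus and less RNA per cell cannot be told apart at any of these loci.

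**Figure D4:**
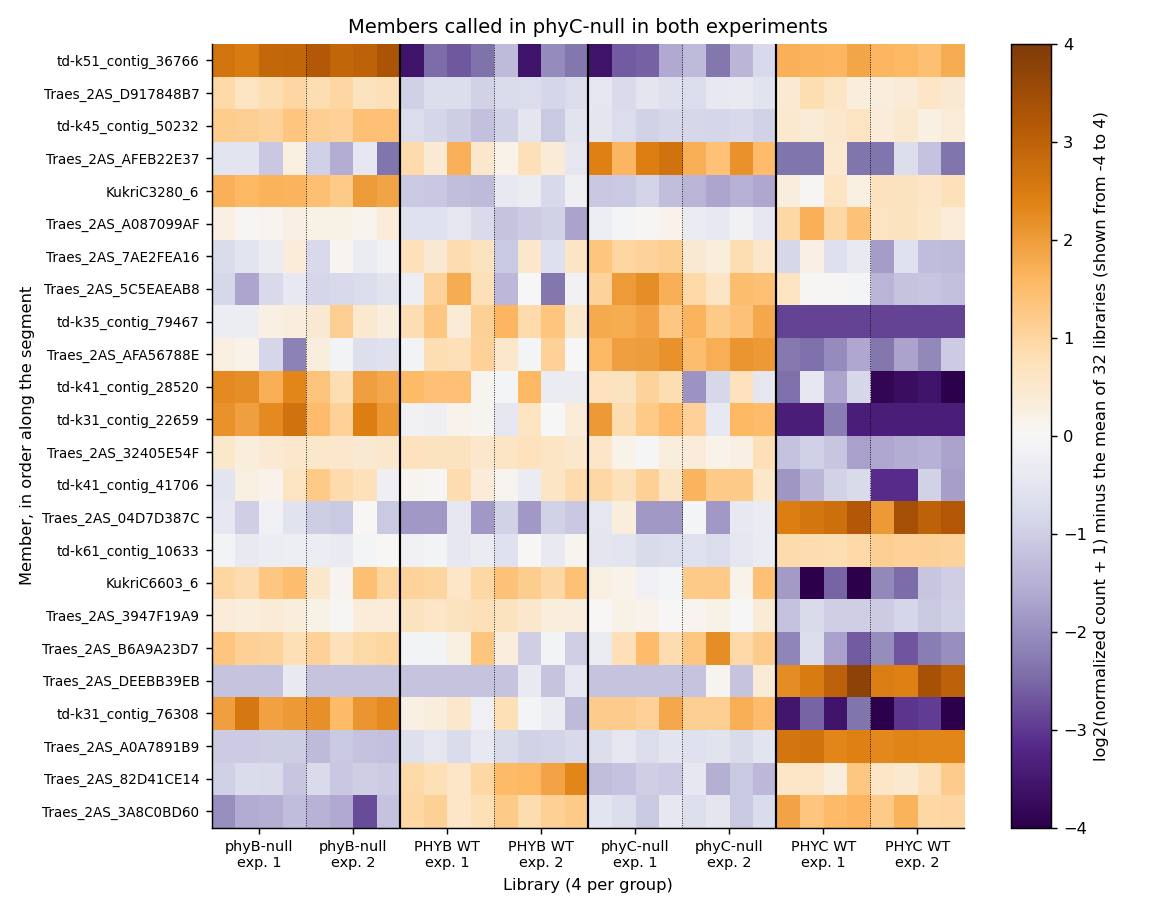
The 24 loci called in *phyC*-null in both experiments (rows, in order along the segment) in the 32 libraries (columns, 4 per group), with colour for log2(normalized count + 1) minus the mean of the 32 libraries, shown from -4 to 4. The *PHYC* wild-type columns differ in colour from those of the other 3 lines in the middle rows, and the top rows alternate between *phyB*-null, the *PHYB* wild type, *phyC*-null and the *PHYC* wild type.

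Of the other annotated loci, 3 rose in *phyB*-null. contig18443 (2A, 2118814 to 2119049), annotated as WIR1A, a small wheat protein induced by fungal infection, had 620 to 1079 normalized counts in *phyB*-null (median 867) and 91.8 to 278 in the *PHYB* wild type (162), without overlap, and rose by 2.21 ± 0.27 and 2.49 ± 0.25 (edgeR adjusted P = 0.000184 and 0.000102). It varied widely within the *PHYC* line, from 22.4 to 250 in *phyC*-null and from 34.6 to 380 in the *PHYC* wild type. Traes_2AS_AD125CB18 (2A, 7055380 to 7058936), annotated as arginase, which splits arginine into ornithine and urea in mitochondria, rose by 1.55 ± 0.16 and 1.51 ± 0.12 in *phyB*-null (5.83e-05 and 2.38e-05), with 273 to 413 normalized counts in *phyB*-null against 90.4 to 155 in the *PHYB* wild type. td-k55_contig_50612 (2A, 7855187 to 7856435), a predicted protein, rose by 1.91 ± 0.30 and 2.47 ± 0.30 (0.00108 and 0.000278), and in *phyC*-null it was called higher in experiment 1 (1.51 ± 0.20, 0.0012) but not in experiment 2 (1.03 ± 0.19, 0.0148).

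The remaining 4 annotated loci fell in *phyB*-null. Traes_2AS_6C2F49AE0 (2A, 15697529 to 15701255) resembles cyclic Dof factor 1, which in Arabidopsis represses the flowering gene *CONSTANS* in the morning. It had 777 to 941 normalized counts in *phyB*-null (median 881) and 1822 to 2414 in the *PHYB* wild type (2065), and fell by 1.29 and 1.24 on the log2 scale (SE 0.12 and 0.10, edgeR adjusted P = 2.44e-05 and 1.64e-05), while *phyC*-null had 1053 to 1627 and the *PHYC* wild type 1550 to 2000. Traes_2AS_D38E1E530 (2A, 2425562 to 2429562), annotated as cytochrome P450 85A1, an oxidase of late brassinosteroid synthesis, had 93.3 to 146 in *phyB*-null against 198 to 468 in the *PHYB* wild type, with fold changes of -1.68 ± 0.15 and -1.12 ± 0.16 (2.31e-05 and 0.000689). All *phyB*-null libraries of both genes lay below all other 24 libraries.

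Traes_2AS_C1EA81EC4 (2A, 7039671 to 7043194), annotated as the alpha subunit of the chaperonin that assists RuBisCO assembly in chloroplasts, had 32.8 to 57 normalized counts in *phyB*-null and 89.5 to 662 in the *PHYB* wild type. Its wild-type level differed between the experiments, at 262 to 662 in experiment 1 and 89.5 to 151 in experiment 2, and the fold change was -3.41 ± 0.27 and -1.39 ± 0.22 in that order (edgeR adjusted P = 8.95e-06 and 0.0016). td-k41_contig_79912 (2A, 10873959 to 10877029), annotated as an F-box protein with leucine-rich repeats, a kind that selects targets for ubiquitin ligases, had 43.5 to 66.4 in *phyB*-null against 101 to 166 in the *PHYB* wild type and fell by 1.44 and 1.12 on the log2 scale (SE 0.16 and 0.14, adjusted P = 8.64e-05 and 0.000423).

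Loci without an annotation in the lists used here were among the 5 largest falls in *phyB*-null. td-k45_contig_85644 (2A, 3876567 to 3878206) had 1.74 to 10.3 normalized counts in *phyB*-null and 6.11 to 105 in the *PHYB* wild type, which overlap through replicate 3 of experiment 1 of the wild type at 6.11. Its log2 fold change was -2.66 ± 0.55 and -3.09 ± 0.36 (edgeR adjusted P = 0.00572 and 0.000232), and the call was lost without *PHYB* wild-type replicate 1 or 2 or *phyB*-null replicate 1, 2 or 3 of experiment 1 (0.0161 to 0.0268). Traes_2AS_621B8FE92 (2A, 14090558 to 14094072) had 29.4 to 42.3 in *phyB*-null against 83.2 to 413 in the *PHYB* wild type, with fold changes of -2.18 ± 0.21 and -2.63 ± 0.44 (3.97e-05 and 0.00185). Traes_2AS_3FC833539 (2A, 7282148 to 7283969) had 6.09 to 13.1 in *phyB*-null against 27 to 72.9 in the *PHYB* wild type, with -2.02 ± 0.28 and -2.55 ± 0.33 (0.000475 and 0.000455). td-k61_contig_14709 (2A, 920513 to 921015), among the 5 largest rises, had 13 to 25.7 in *phyB*-null against 1.27 to 7.56 in the *PHYB* wild type, and its call was lost without *phyB*-null replicate 3 of experiment 1 (0.0105).

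The wild-type lines differed from each other more often in the segment than elsewhere. Between the *PHYB* wild type and the *PHYC* wild type 125 of 668 tested loci were called (18.7%), 66 higher and 59 lower in the *PHYB* wild type, where the share was 11.9% over all loci (5.54% higher and 6.33% lower) and 11.2% over the rest of chromosome 2A. Over the same 4 stretches of the segment the calls were 46 of 200, 40 of 192, 18 of 151 and 21 of 125. Leaving out replicate 1, 3 or 4 of every group lowered the count to 74, 80 and 83, and the share over all loci to 5.25%, 6.48% and 5.95%. Within experiment 1 alone 36 loci were called (2.08% over all loci), and within experiment 2 alone 64 (5.36%). Since the lines were grown in separate runs, line and growth run cannot be told apart, and this contrast shares the *PHYC* wild-type libraries with the *phyC*-null comparison. Library totals were 31306948 to 34888411 reads in the *PHYB* wild type and 18898968 to 25666244 in the *PHYC* wild type in experiment 2, and 21643708 to 29522407 in the *PHYB* wild type and 24034955 to 25507558 in the *PHYC* wild type in experiment 1. The part of depth in the calls was not tested.

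The largest differences between the wild types were at loci that 1 of them hardly read. isotig20431 (2A, 5893570 to 5900137) had 143 to 584 normalized counts in the *PHYB* wild type (median 291) and 1.57 to 15.6 in the *PHYC* wild type (6.56), a log2 difference of 5.42 ± 0.39 (edgeR adjusted P = 4.89e-08), while *phyB*-null had 98.6 to 435 and *phyC*-null 26.1 to 249. It was called higher in *phyC*-null than in its wild type in experiment 1 (4.63 ± 0.42, 8.35e-05) and not in experiment 2 (2.51 ± 0.52, 0.0243). Traes_2AS_E6FF6A652 (2A, 3360902 to 3361679) had 0 to 6.37 in the *PHYB* wild type and 9.53 to 58.5 in the *PHYC* wild type, a difference of -4.45 ± 0.37 (3.18e-07), with 0 to 2.49 in *phyB*-null and 0 to 8.96 in *phyC*-null. td-k51_contig_2773 (2A, 4234057 to 4235953) separated the 2 pairs of lines, with 1.47 to 6.96 in *phyB*-null and 0 to 11.3 in the *PHYB* wild type but 37.6 to 210 in *phyC*-null and 45.5 to 131 in the *PHYC* wild type.

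Traes_2AS_821E10536 (2A, 204923 to 206398) and td-k31_contig_71783 (2A, 13798372 to 13799407) were among the 5 largest differences in favour of the *PHYB* wild type but were read sparsely. The first had 124 reads in the *PHYB* wild type and 5 in the *PHYC* wild type, and its call was lost without replicate 1 or 3 of every group (edgeR adjusted P = 0.0183 and 0.0288). Its difference between the mutant effects (-6.93 ± 1.31, 0.000548) was lost without replicate 2 or 3 of every group (0.0108 and 0.0139). The second had 52 reads in the *PHYB* wild type and 1 in the *PHYC* wild type, and its call was lost without any 1 replicate number (0.0138 to 0.0637) and without *PHYC* wild-type replicate 3 of experiment 1 alone (0.011).

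By another count, 9 of 318 loci with a mean of at least 20 in some line were near zero in another line, that is at or under 5% of the highest line (2.83%, where the share was 1.36% over all such loci). The *PHYC* wild type alone was near zero at 4 of them (1.26%, against 0.312%), *phyC*-null alone at 0 (0.0816% of all such loci), *phyB*-null alone at 1 (0.268%) and the *PHYB* wild type alone at 1 (0.105%). The 4 are td-k35_contig_79467, td-k31_contig_22659, isotig20431 and td-k31_contig_76308. The other 5 are td-k51_contig_36766_td-k45_contig_28292, Traes_2AS_E6FF6A652, td-k51_contig_2773, Traes_2AS_04D7D387C and KukriC3550_11.

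A run of 3 neighbouring loci between 10660553 and 10680266 was read almost only in the *PHYC* wild type, and there 1 library stood apart. KukriC3550_11 (2A, 10679593 to 10680266) had 0 reads in all 8 libraries of *phyB*-null and of the *PHYB* wild type and 1 read in *phyC*-null. In the *PHYC* wild type it had 92.2, 98.9, 0 and 46.1 normalized counts in replicates 1 to 4 of experiment 1 and 113, 134, 126 and 161 in experiment 2. Replicate 3 of experiment 1 was thus at 0, and the other 7 libraries were at 46.1 or more. Against a floor of 3 reads over 8 libraries, the *PHYC* wild type was at least 361-fold higher than *phyB*-null and at least 272-fold higher than the *PHYB* wild type. None of the 3 loci was among those called in *phyC*-null against its own wild type in both experiments.

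The same library was lowest of the *PHYC* wild type at the other 2 loci, which were singled out after their values were seen. contig63391 (2A, 10660553 to 10664536) had 1.23 normalized counts in replicate 3 of experiment 1 and 5.58 to 21.4 in the other *PHYC* wild-type libraries, against 0 to 5.86 in *phyC*-null, 0 to 2.03 in *phyB*-null and 0 to 2.08 in the *PHYB* wild type. contig61419 (2A, 10678702 to 10679243) had 1.23 in that library and 6.5 to 19.1 in the others, against 0 to 1.39 in *phyC*-null, 0 to 1.66 in *phyB*-null and 0 to 2.55 in the *PHYB* wild type. The difference between the wild types was called at all 3 (edgeR adjusted P = 5.83e-05 at KukriC3550_11, 0.00018 at contig63391 and 0.000268 at contig61419), and at KukriC3550_11 it was 1.46e-07 without that library and 0.0206 within experiment 1 alone. Without that library 9 loci were near zero in a line, as with it.

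**Figure D5:**
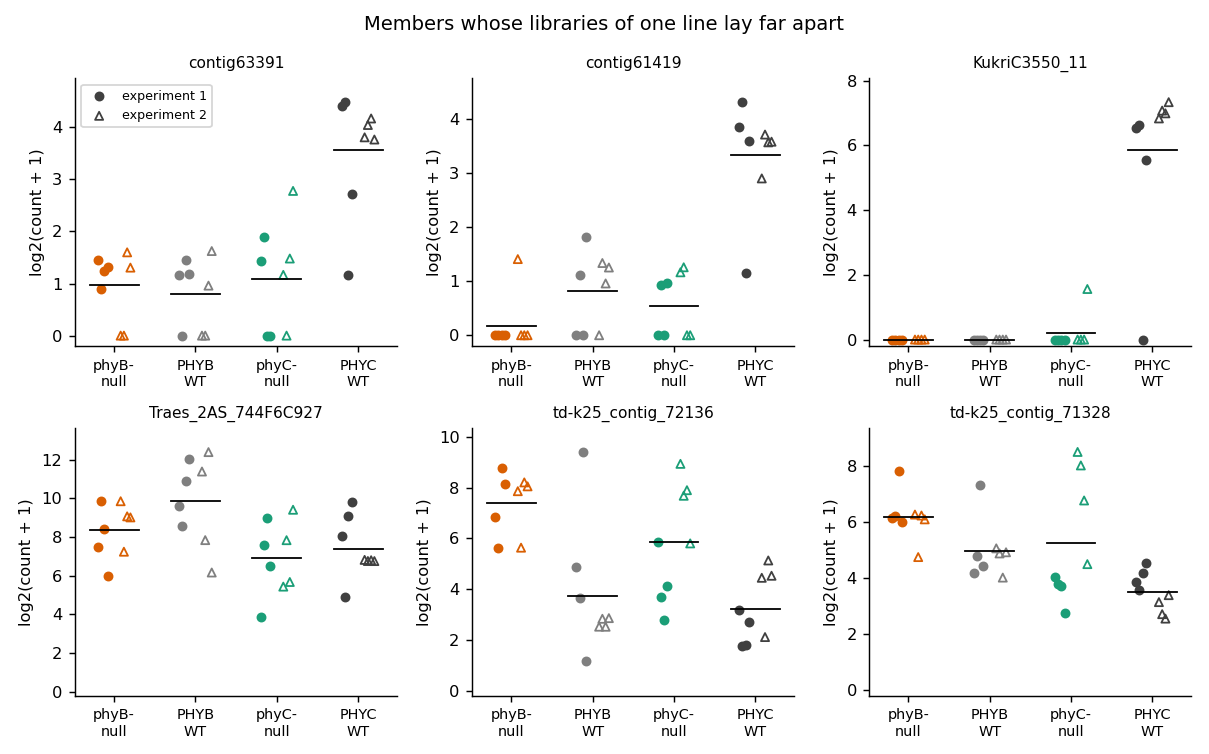
Per-library values of 6 loci at which libraries of 1 line lay far apart, as log2(normalized count + 1), with circles for experiment 1, triangles for experiment 2 and a bar at the mean of the 8 libraries of a line. The lowest *PHYC* wild-type circle in the 3 top panels is replicate 3 of experiment 1. The bottom panels show scatter within several lines, and within every line at Traes_2AS_744F6C927.

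Some loci were split between the libraries of 1 line, with a line mean of at least 20 and the lowest library at or under 5% of the highest. This held in *phyB*-null for 2 of 273 loci (0.733%, against 0.173% over all loci), in the *PHYB* wild type for 2 of 272 (0.735%, against 1.08%), in *phyC*-null for 4 of 284 (1.41%, against 0.709%) and in the *PHYC* wild type for 3 of 273 (1.1%, against 1.44%). td-k25_contig_72136 (2A, 3840700 to 3841996) had 5.97 to 57.1 normalized counts in experiment 1 of *phyC*-null and 54.7 to 488 in experiment 2. In the *PHYB* wild type it was at 1.27 to 28.2 in 7 libraries and at 674 in replicate 3 of experiment 1. td-k25_contig_71328 (2A, 5252988 to 5255762) showed the same pattern, with 5.8 to 15.4 in experiment 1 and 21.5 to 358 in experiment 2 of *phyC*-null, and 160 in that *PHYB* wild-type library against 15.1 to 32.2 in the other 7.

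Traes_2AS_744F6C927 (2A, 11650189 to 11651348) varied widely within every line. It had 63.3 to 929 normalized counts in *phyB*-null (median 429), 70.7 to 5344 in the *PHYB* wild type (1331), 13.6 to 678 in *phyC*-null (139) and 28.6 to 882 in the *PHYC* wild type (111), and all 4 lines overlap. It was not called in either mutant, with adjusted P from 0.0614 to 0.509 (edgeR), but was called higher in the *PHYB* than in the *PHYC* wild type (3.17 ± 0.75, 0.00525). Traes_2AS_B5A6B1C99 (2A, 11131550 to 11143802) had 16.9 to 748 in *phyB*-null (median 189) and 16.1 to 152 in the *PHYB* wild type (38.8), and it was called in *phyB*-null in experiment 1 (2.39 ± 0.53, 0.00831) but not in experiment 2 (1.68 ± 0.72, 0.121).

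A few abundant loci held a large share of the reads of the segment. The 5 most abundant took 40.3% to 58.2% of the segment's reads in *phyB*-null libraries, 57.9% to 71% in the *PHYB* wild type, 57.7% to 75.9% in *phyC*-null and 68.2% to 76.5% in the *PHYC* wild type. Without them the segment held 0.36% to 0.407% of all reads in *phyB*-null, 0.336% to 0.441% in the *PHYB* wild type, 0.33% to 0.369% in *phyC*-null and 0.34% to 0.376% in the *PHYC* wild type, ranges that overlap. Traes_2AS_3953901E4 (2A, 10039347 to 10040926) had 26893 to 64479 normalized counts in *phyB*-null (median 47064), 64134 to 182349 in the *PHYB* wild type (105306), 53993 to 196144 in *phyC*-null (94835) and 106856 to 206654 in the *PHYC* wild type (151836). It was called lower in *phyB*-null in experiment 1 (-1.43 ± 0.28, edgeR adjusted P = 0.00414) and not in experiment 2 (-1.17 ± 0.32, 0.0231).

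Another 3 of the abundant loci had the same extreme libraries. Traes_2AS_3953901E4, Traes_2AS_1F35CBAEE, Traes_2AS_C849DE54E and Traes_2AS_2B3603918 all had their lowest value in *phyB*-null replicate 4 of experiment 1 and their highest in *PHYC* wild-type replicate 4 of experiment 1. Traes_2AS_1F35CBAEE (2A, 8866622 to 8871393) ranged from 13788 to 92624 normalized counts and Traes_2AS_C849DE54E (2A, 9496184 to 9497381) from 5676 to 51534 between these 2 libraries. The fifth, Traes_2AS_007D8F7BD (2A, 12276425 to 12280652), followed another order, with 6102 to 9700 in *phyB*-null, 4638 to 9448 in the *PHYB* wild type, 11837 to 16455 in *phyC*-null and 8667 to 20876 in the *PHYC* wild type. It was called lower in the *PHYB* than in the *PHYC* wild type (-0.84 ± 0.13, edgeR adjusted P = 0.000203) and in neither mutant.

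The effects of the 2 mutants were also compared directly, as the *phyB*-null effect minus the *phyC*-null effect. This difference was called at 77 of the 761 loci (10.1%, where the share was 5.95% over all loci (2.59% higher and 3.37% lower) and 5.15% over the rest of chromosome 2A), 30 higher and 47 lower. Over the 4 stretches the calls were 38 of 225, 27 of 222, 6 of 169 and 6 of 145 loci. The largest was 10.19 ± 0.38 at td-k51_contig_36766_td-k45_contig_28292 (edgeR adjusted P = 3.67e-19), and KukriC3280_6 differed by 4.34 ± 0.17 (8.96e-19). The first of these standard errors is too small, since 2 of the lines had few reads at that locus. In the other direction Traes_2AS_AFA56788E differed by -4.92 ± 0.39 (8.76e-11) and Traes_2AS_29EA43021 (2A, 7314448 to 7315827), singled out after its values were seen, by -3.91 ± 0.27 (2.78e-12). Traes_2AS_29EA43021 had 5.96 to 16.2 normalized counts in *phyB*-null, 26.5 to 39.2 in the *PHYB* wild type, 23.4 to 33.8 in *phyC*-null and 1.4 to 14.2 in the *PHYC* wild type. Among the 5 largest differences in each direction were also 2 loci with few reads, contig02547 (2A, 249727 to 250172) with 7 reads in *phyB*-null, 21 in the *PHYB* wild type, 77 in *phyC*-null and 1 in the *PHYC* wild type, and td-k51_contig_55684 (2A, 1147015 to 1147337) with 36, 5, 3 and 37 reads in the same lines.

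None of the loci next to the limit of 16 Mb was called in any comparison. The last 2 loci inside it, Traes_2AS_7A69AF0D3 (2A, 15931650 to 15935839) and Traes_2AS_761D21DFA (2A, 15938214 to 15939730), averaged 17.4 and 42.8 normalized counts in *phyB*-null, 18 and 28.5 in the *PHYB* wild type, 37.1 and 32.1 in *phyC*-null and 23.2 and 25.1 in the *PHYC* wild type. The first 2 detected loci outside it, td-k21_contig_17840_td-k41_contig_26729 and Traes_2AS_5D4814B59, averaged 25.3 and 136, 43.8 and 143, 40.6 and 127, and 43.3 and 119 in the same order of lines.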

How the data were processed

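Leaf RNA of 4 Kronos lines was sequenced in 32 libraries, 4 per line and experiment. The authors trimmed single-end reads, mapped them with GSNAP to the A and B chromosome arms of a draft Chinese Spring assembly, dropped reads of low mapping quality and counted the rest with HTSeq over merged transcribed regions. The deposited values are raw counts per locus for 150754 loci, and the coordinates of the loci come from the deposited annotation of that assembly. The sources call the libraries biological replicates.

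Each comparison was fitted over the loci that reach 3 reads in 2 or more of its libraries, with edgeR 4.0.16 (quasi-likelihood test, median-of-ratios factors) in R 4.3.3 and Benjamini-Hochberg adjustment over all loci tested, and was called at 0.01. Each mutant was set against its wild-type sister within each experiment. The wild types were compared in 1 fit of their libraries, and the mutant effects in 1 fit of all 32. Fold changes are log2 with approximate standard errors, taken as the size of the fold change divided by the square root of the test's F statistic. Where a line had few reads, these standard errors understate the uncertainty. Counting error sets the precision at low counts. The fit was tested on simulated data made from these libraries. A line without reads was given a floor of 3 reads over its 8 libraries.

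The text names the annotated loci, the 5 largest changes in each direction per comparison, up to 5 loci near zero in a line or split between its libraries, the 5 most abundant loci and those at the limit of 16 Mb. Loci outside this rule are said to be chosen after their values were seen. The loci and lists were chosen with earlier results of these data known, and 2 loci of the segment are not reported here. Alternatives were a threshold of 0.05, a 2-fold minimum, TMM factors, other filters, DESeq2 1.42.0, edgeR's exact test, a replicate block and leaving out libraries. Pairs of libraries within a group differed by more than sampling noise. No sequence was used here. Figures were drawn with matplotlib 3.10.9.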

Additional observations from a re-analysis of the deposited data

Results flagged for a closer look

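In groups of 4 libraries, a library was singled out where its gap to the nearest other library was over 0.829 of the range of the group, by Dixon's critical value. Of 302 groups examined over 49 loci, 19 held such a library, and chance gives about 1 in 20. *PHYB* wild-type replicate 3 of experiment 1 was the library in 3 of the 19. Its 3 loci, td-k25_contig_72136, td-k25_contig_71328 and Traes_2AS_B5A6B1C99, were named because libraries of 1 line lay far apart. Both counts therefore partly restate that choice and are not independent evidence.

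At td-k45_contig_22039_td-k21_contig_19641, replicate 3 of experiment 2 of the *PHYB* wild type was lowest at 133 normalized counts against 149 to 151 in the other 3 (ratio 0.87). At td-k45_contig_22039_td-k21_contig_19641, replicate 4 of experiment 1 of *phyC*-null was lowest at 71.5 normalized counts against 75.7 to 76.4 in the other 3 (ratio 0.845). At Traes_2AS_32405E54F, replicate 3 of experiment 2 of *phyB*-null was lowest at 156 normalized counts against 166 to 166 in the other 3 (ratio 0.958). At td-k25_contig_72136, replicate 3 of experiment 1 of the *PHYB* wild type was highest at 674 normalized counts against 1.27 to 28.2 in the other 3 (ratio 0.96). At td-k25_contig_71328, replicate 3 of experiment 1 of the *PHYB* wild type was highest at 160 normalized counts against 17.2 to 26.8 in the other 3 (ratio 0.932). At td-k25_contig_71328, replicate 3 of experiment 1 of *phyB*-null was highest at 224 normalized counts against 63.3 to 72.2 in the other 3 (ratio 0.945). At isotig20431, replicate 3 of experiment 1 of *phyB*-null was lowest at 242 normalized counts against 408 to 435 in the other 3 (ratio 0.861). At Traes_2AS_C1EA81EC4, replicate 2 of experiment 2 of the *PHYB* wild type was highest at 151 normalized counts against 89.5 to 97.5 in the other 3 (ratio 0.87). At Traes_2AS_3FC833539, replicate 3 of experiment 2 of the *PHYC* wild type was highest at 88.5 normalized counts against 63 to 65 in the other 3 (ratio 0.922). At td-k31_contig_76308, replicate 2 of experiment 1 of *phyB*-null was highest at 159 normalized counts against 101 to 109 in the other 3 (ratio 0.859). At td-k31_contig_76308, replicate 4 of experiment 1 of *phyC*-null was highest at 93.7 normalized counts against 55.7 to 60.6 in the other 3 (ratio 0.873). At Traes_2AS_1F35CBAEE, replicate 1 of experiment 2 of *phyB*-null was highest at 30641 normalized counts against 22875 to 23495 in the other 3 (ratio 0.92). At td-k41_contig_79912, replicate 1 of experiment 2 of *phyB*-null was highest at 66.4 normalized counts against 53 to 54.1 in the other 3 (ratio 0.916). At td-k41_contig_79912, replicate 2 of experiment 1 of *phyC*-null was highest at 184 normalized counts against 148 to 151 in the other 3 (ratio 0.913). At td-k41_contig_79912, replicate 1 of experiment 2 of the *PHYC* wild type was highest at 205 normalized counts against 153 to 156 in the other 3 (ratio 0.94). At td-k41_contig_79912, replicate 2 of experiment 2 of *phyC*-null was highest at 307 normalized counts against 200 to 205 in the other 3 (ratio 0.956). At Traes_2AS_B5A6B1C99, replicate 3 of experiment 1 of the *PHYB* wild type was highest at 152 normalized counts against 35.7 to 47.8 in the other 3 (ratio 0.895). At Traes_2AS_B5A6B1C99, replicate 4 of experiment 2 of the *PHYB* wild type was highest at 79.8 normalized counts against 16.1 to 21.8 in the other 3 (ratio 0.91). At Traes_2AS_621B8FE92, replicate 1 of experiment 1 of the *PHYC* wild type was highest at 84.1 normalized counts against 38.1 to 45.5 in the other 3 (ratio 0.84).

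The effect of *phyB*-null minus that of *phyC*-null passed edgeR's quasi-likelihood test at 34 of the named loci, each tested as a difference of effects in the fit of all 32 libraries. Over all loci 5.95% passed it. Many of the 34 were named because this test, or another on the same libraries, called them, so their number is not independent evidence. Values are on the log2 scale, and those of loci with few or no reads in a line depend on the prior count. The difference was positive at td-k51_contig_36766_td-k45_contig_28292 (10.19), Traes_2AS_D917848B7 (2.66), td-k45_contig_50232_td-k55_contig_14458 (3.30), td-k51_contig_33506 (3.37), td-k45_contig_22039_td-k21_contig_19641 (3.27), Traes_2AS_FEFDC29F2 (1.11), td-k61_contig_14709 (4.01), td-k51_contig_16470 (2.09), td-k51_contig_55684 (5.74), KukriC3280_6 (4.34), Traes_2AS_A087099AF (2.16), contig18443 (2.01), Traes_2AS_04D7D387C (5.21), td-k61_contig_10633 (1.55), Traes_2AS_AD125CB18 (1.18) and Traes_2AS_A0A7891B9 (2.58). It was negative at Traes_2AS_821E10536 (-6.93), contig02547 (-7.34), Traes_2AS_AFEB22E37 (-5.71), td-k35_contig_79467 (-8.27), Traes_2AS_D38E1E530 (-1.81), Traes_2AS_AFA56788E (-4.92), td-k31_contig_22659 (-4.71), Traes_2AS_32405E54F (-1.91), isotig20431 (-3.80), KukriC6603_6 (-3.01), Traes_2AS_3947F19A9 (-1.38), Traes_2AS_C1EA81EC4 (-2.68), Traes_2AS_3FC833539 (-1.21), Traes_2AS_29EA43021 (-3.91), td-k31_contig_76308 (-3.12), td-k41_contig_79912 (-1.53), Traes_2AS_621B8FE92 (-2.32) and Traes_2AS_6C2F49AE0 (-0.87).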

How the results depend on the processing

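No result changed direction under the alternatives that were run. At a threshold of 0.05 the counts of called loci were 128 and 141 in experiments 1 and 2 of *phyB*-null (59 and 74 at 0.01), 73 in experiment 1 of *phyC*-null (34), 77 in both experiments of *phyB*-null (33), 40 in both of *phyC*-null (24), 206 between the wild types (125) and 122 for the difference of the mutant effects (77). The shares over all tested loci rose too, to 19.9% and 23.2% in experiments 1 and 2 of *phyB*-null and 5.75% in experiment 1 of *phyC*-null. They were then 23% between the wild types and 11.3% for the difference of effects. edgeR's exact test called 92 loci in experiment 1 of *phyB*-null, 73 in experiment 1 of *phyC*-null, 57 in both experiments of *phyB*-null and 42 in both of *phyC*-null. Of all loci it called 14.2% in experiment 1 of *phyB*-null and 4.86% in experiment 1 of *phyC*-null. DESeq2 called 60 in experiment 1 of *phyC*-null and 57 in both of *phyB*-null, and without a filter experiment 1 of *phyC*-null gave 52. The shares over all loci in that experiment were 4.89% with DESeq2 and 2.28% without a filter. The 9 loci near zero in a line became 21 at 10% of the highest line and 5 at a minimum mean of 50, and the 8 split loci became 18 and 5. No share over all loci is given here for calls in both experiments or for near-zero and split loci under these alternatives. Those counts describe the segment alone.

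Leaving out 1 library at a time gave 34 to 70 loci in experiment 1 and 44 to 84 in experiment 2 of *phyB*-null, 25 to 43 in both, 13 to 56 in experiment 1 and 27 to 36 in experiment 2 of *phyC*-null, and 10 to 27 in both. Counts moved by over 1.5 times without *phyB*-null replicate 1 or 3 of experiment 1 or replicate 1, 3 or 4 of experiment 2, without any *phyC*-null replicate or *PHYC* wild-type replicate 2 or 4 of experiment 1, and without replicate 1 of either *PHYC* line in experiment 2. Leaving out a replicate number in every group gave 74 to 85 loci between the wild types and 54 to 61 for the difference of effects. Between the wild types 5.25% to 6.85% of all loci were then called, and no such share is given here for the difference of effects. Near-zero loci ranged from 9 to 11 and split loci from 6 to 9. In alternatives chosen after seeing the data, leaving out *PHYC* wild-type replicate 3 of experiment 1 gave 111 loci between the wild types, the wild types of experiment 1 alone gave 36 loci and those of experiment 2 alone gave 64.

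Replicate numbers did not pair the libraries. Of 16 correlations between same-numbered libraries of a mutant and its wild type, 3 were above 0.1 (range -0.39 to 0.15). With the replicate block, 35 loci were called in experiment 1 of *phyB*-null and 22 in experiment 1 of *phyC*-null, where 4.21% and 0.959% of all loci were called. Of the loci called in both experiments, 22 of 33 in *phyB*-null and 15 of 24 in *phyC*-null were still called with the block. Of 54 results for single loci named in the text, 39 kept their call wherever a value was had and 15 lost it under at least 1 alternative (adjusted P 0.0101 to 0.12, and 0.002 at Traes_2AS_D917848B7 in *phyC*-null, whose change in experiment 2 is under the 2-fold minimum).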
